A study of Mus musculus with 6 samples.

Results

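Heme synthesis was followed through 9 listed genes, 8 enzymes of the pathway and Tfrc, the transferrin receptor, which is not an enzyme but brings iron into the cell. The genes were chosen by name, with earlier results of these data already known. Each was read from the probe set with the highest mean among those paired with it alone. Of the 9 genes, 8 had such a probe set, among 22180 genes in all. Alas2 shares its probe set with Apex2 and was not analysed here.

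Marrow cells labelled osteoblastic were sorted from leukemic mice of the Col2.3 GFP genotype, where a piece of the Col1a1 promoter drives green fluorescent protein in bone-forming cells. Both groups carry this reporter. Of 6 arrays, 1 per sample, 3 represent chronic myeloid leukemia (CML) and 3 represent acute myeloid leukemia (AML), and no array of a healthy mouse was used. The titles separate the groups, but the source name field reads CML on every sample, so each direction given rests on the titles. The sources used here do not give how each leukemia was made, the age of the mice or any pooling of animals. The labels do not say whether the arrays of a group hold separate animals, so the p-values reflect the spread of these samples alone, possibly technical.

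Heme is iron held in a porphyrin ring. Its synthesis begins in the mitochondrion, passes through the cytosol and ends in the mitochondrion again. The first step, which limits the rate in most cells, is catalysed by Alas1 in cells of all kinds and by Alas2 in red cell precursors. Developing red cells make by far the most heme in bone marrow, for hemoglobin, while other cells need it for cytochromes, catalase and peroxidases. Among the later steps, Alad joins pairs of 5-aminolevulinate into porphobilinogen, Uros closes the ring, Urod removes carboxyl groups from its side chains, Cpox and Ppox oxidise it to protoporphyrin, and Fech inserts the iron.

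The opening gene of the pathway and the rest moved apart. Alas1 rose in AML, 5.51-fold. The other 7 genes were all lower in AML by value, from 2.20-fold for Alad to 5.23-fold for Cpox, and none of these passed the test. Thus 1 of 8 genes passed (limma, adjusted p under 0.05 over all genes), where 1.91% of all genes did, 1.83% as higher and 0.0812% as lower in AML. The median change of the 8 genes was -1.38 on the log2 scale, and that of all genes was -0.11. By value, 7 of 8 were lower in AML, as were 61.7% of all genes, and the same 7 were at least 2-fold lower, as were 1.98% of all genes. An unadjusted p under 0.05 was reached by 3 of the 8, where 21.5% of all genes reached it.

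Short stretches of 3 promoters and of the start of Alas1 are shown because they hold motifs used by general and by red cell genes. RefSeq promoter windows (GRCm38.p6, from 250 bases before to 50 after a start site) were found for 8 of the 9 genes, in 12 windows. Alas2 was among these genes and Fech was not. Capitals mark the motif, and each line reads 5′ to 3′ on the gene's strand. The NRF1 core is the palindromic centre of the site for nuclear respiratory factor 1, a regulator of mitochondrial genes. In Uros it matches on the other strand and is not a perfect palindrome. GATAA, seen here as TTATC on the other strand, is the core of the GATA1 site. Not shown are another NRF1 core from base 1 after the Alas1 start and another GATAA from base 5 after the Cpox start.
Alas1, chr9:106247906-106247935, minus strand, NRF1 core from base 30 after the start: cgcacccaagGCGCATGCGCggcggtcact
Uros, chr7:133709323-133709352, minus strand, NRF1 core from base 47 before a start: cggtcacactGCGCCTGCGCgagtcccgcc
Uros, chr7:133702551-133702580, minus strand, GATAA from base 68 before another start: tctccctcagccTTATCagtgacagagggc
Cpox, chr16:58670110-58670139, plus strand, GATAA from base 86 before the start: aaagcgcctatcTTATCagtccaagcacct
Alas2, chrX:150547319-150547348, plus strand, GATAA from base 86 before the start: ctactttgctttTTATCtttagcagaggcc

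Alas1 thus carried the NRF1 core and no GATAA, Cpox and Alas2 the reverse, and Uros both, at different start sites, while the windows of Alad, Urod, Tfrc and Ppox held neither. A match describes letters and does not show binding. On either strand, GATAA stood in 3 of the 12 windows (Uros, Cpox, Alas2) and in 25.4% of all 32851 windows, so about as often in both, and the NRF1 core, with any base at its sixth place, in 3 windows of Alas1 and Uros and in 4.6% of all. The CACCC box, read by Klf1, stood in 8 of the 12 windows, both of Alas1 among them, and in 57.5% of all, the E-box CACGTG in 4 and in 7.15%, and ACGTG, which overlaps CACGTG, in 7 and in 19.6%. CAGTGN, the loop of iron-responsive elements, was searched on the transcript's strand only and stood in 5 windows and in 34.6% of all. Most of each window lies before its start site, outside the mRNA, so the search cannot show which genes hold such elements. Ppox, whose groups did not overlap, had of these motifs only the letters CAGTGN in its window, before the start site. The bases before its start, chr1:171281194-171281436 on the minus strand, are shown for that reason, all in lower case: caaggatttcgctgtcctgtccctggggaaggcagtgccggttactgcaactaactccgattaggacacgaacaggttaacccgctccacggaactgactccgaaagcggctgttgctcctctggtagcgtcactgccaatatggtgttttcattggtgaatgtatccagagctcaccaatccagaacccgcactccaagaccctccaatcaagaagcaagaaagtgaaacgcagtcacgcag

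Alas1 (probe set 17530653, chromosome 9) was the steadiest gene of the list in CML. Its log2 intensity was 5.57 on CML 1, 5.71 on CML 2 and 5.87 on CML 3, against 8.67 on AML 1, 8.46 on AML 2 and 7.41 on AML 3. Every AML array lay above every CML array, as in 13.3% of all genes, and AML 3 lay nearest to CML. The AML mean was 8.18 ± 0.68 and the CML mean 5.72 ± 0.15 (SD, n = 3 each), a log2 change of 2.46 ± 0.33 (SE; limma adjusted p = 0.0298) with a 95% interval of 3.17-fold to 9.58-fold. Of the genes that passed, 74 had a larger log2 rise. The call held in 2 of 6 fits with 1 array left out, without CML 1 and without AML 3, and ended in the other 4, with log2 changes from 2.22 to 2.85 and adjusted p from 0.0141 to 0.142. It also ended after quantile normalization (adjusted p = 0.0658), after cyclic loess (0.0832) and with 10 added to the intensity (0.0517), at log2 changes of 2.27, 2.16 and 2.26.

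**Figure D1:**
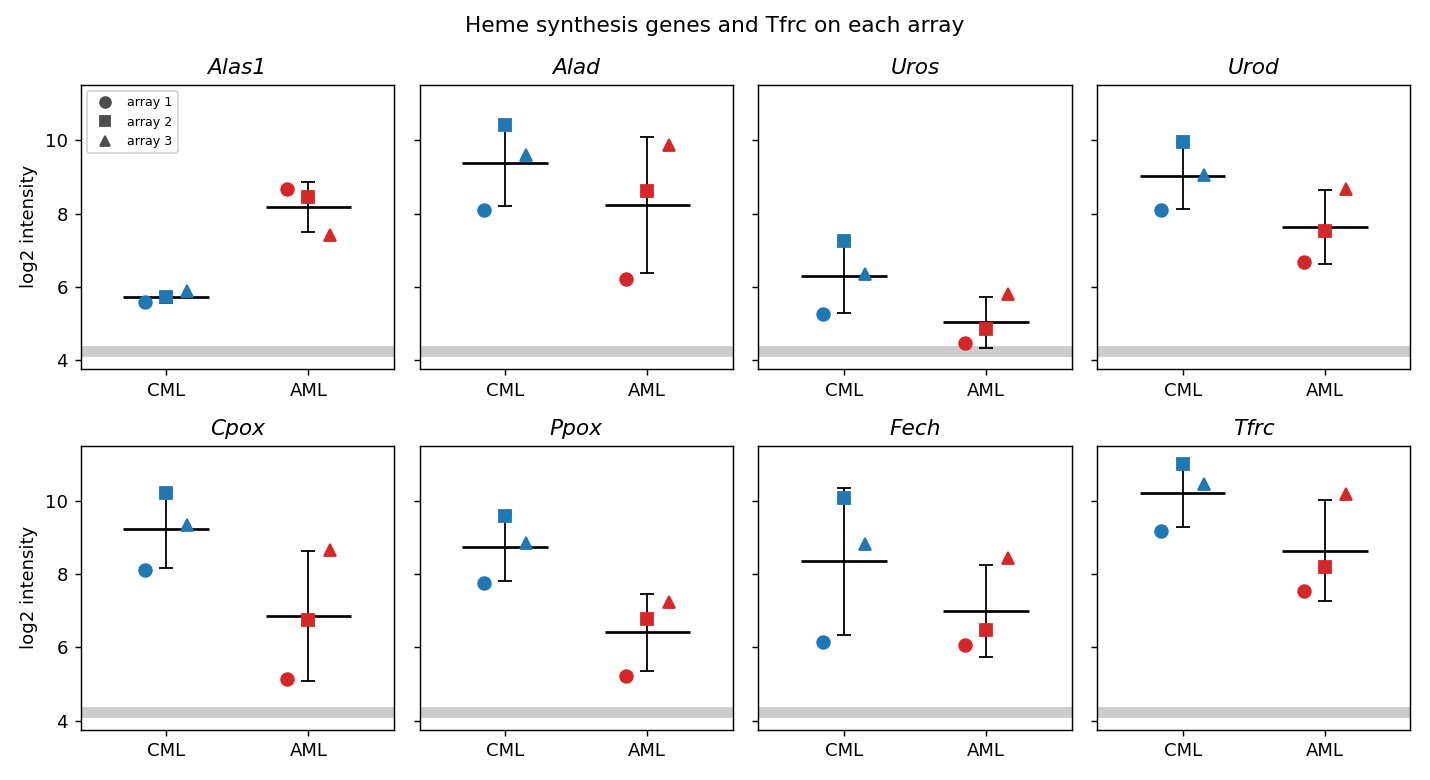
Log2 intensity (y axis) of the 8 genes in pathway order, with Tfrc last, on CML (blue) and AML (red) arrays; symbols mark arrays 1, 2 and 3, lines the group mean, bars 1 SD (n = 3), and the grey band the array medians. Alas1 lies between 5.57 and 5.87 in CML and between 7.41 and 8.67 in AML, while in the other 7 genes CML 2 is the highest CML array and AML 1 the lowest AML array.

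Of the cytosolic enzymes, Alad (probe set 17426206, chromosome 4), which makes porphobilinogen, overlapped most between the groups. Its log2 intensity was 8.10 on CML 1, 10.41 on CML 2 and 9.61 on CML 3, against 6.21 on AML 1, 8.62 on AML 2 and 9.88 on AML 3. Only AML 1 lay below all CML arrays. The log2 change was -1.14 ± 0.99 (SE; limma adjusted p = 0.491), and without AML 1 it was -0.12.

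Uros (probe set 17497203, chromosome 7), which closes the porphyrin ring, stood at log2 intensities of 5.26, 7.24 and 6.36 on the CML arrays and 4.46, 4.84 and 5.81 on the AML arrays. AML 3 lay between CML 1 and CML 3, and AML 1 came near the array medians, which ran from 4.11 to 4.35. The log2 change was -1.25 ± 0.56 (SE; limma adjusted p = 0.249). Urod (probe set 17428735, chromosome 4), the decarboxylase that follows, stood at 8.10, 9.94 and 9.06 in CML and at 6.67, 7.53 and 8.68 in AML. Here too AML 3 was the one AML array within the CML range, and the log2 change was -1.41 ± 0.62 (SE; limma adjusted p = 0.247).

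The oxidases of the mitochondrion had the largest differences among the 7 genes. Cpox (probe set 17326428, chromosome 16), coproporphyrinogen oxidase, stood at log2 intensities of 8.13, 10.23 and 9.36 in CML and 5.13, 6.75 and 8.67 in AML. AML 1 and AML 2 lay below all CML arrays, and AML 3 lay above CML 1. The log2 change was -2.39 ± 0.93 (SE; limma adjusted p = 0.212). Ppox (probe set 17229681, chromosome 1), protoporphyrinogen oxidase, stood at 7.77, 9.59 and 8.86 in CML and 5.23, 6.78 and 7.24 in AML. It was the one gene of the 7 whose groups did not overlap, as 17.9% of all genes were without overlap and lower in AML. The AML mean was 6.42 ± 1.05 and the CML mean 8.74 ± 0.92 (SD, n = 3 each), which is 5.0-fold lower in AML, with a 95% interval from 1.74-fold to 14.4-fold. The log2 change of -2.32 ± 0.64 did not pass (SE; limma adjusted p = 0.123; unadjusted p = 0.00912). With 1 array left out it ran from -2.81 to -1.73, with adjusted p from 0.0820 to 0.294. Cpox and Ppox were the 2 genes with an unadjusted p under 0.05 and a lower value in AML, as 8.99% of all genes had.

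Fech (probe set 17354995, chromosome 18), the ferrochelatase that ends the pathway, varied most among CML arrays. Its log2 intensity was 6.15 on CML 1, 10.07 on CML 2 and 8.83 on CML 3, against 6.07 on AML 1, 6.48 on AML 2 and 8.43 on AML 3. CML 1 lay 3.92 below CML 2 and among the AML arrays, so the groups overlapped. The log2 change was -1.35 ± 1.07 (SE; limma adjusted p = 0.450), and it was -0.49 without CML 2 and -2.45 without CML 1.

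Tfrc (probe set 17324835, chromosome 16), which takes up iron bound to transferrin, stood at log2 intensities of 9.18, 11.01 and 10.48 in CML and 7.54, 8.19 and 10.20 in AML. AML 1 and AML 2 lay below all CML arrays, and AML 3 lay between CML 1 and CML 3. The log2 change was -1.58 ± 0.76 (SE; limma adjusted p = 0.273), or 2.99-fold lower in AML by value, with a 95% interval that runs from 10.5-fold lower to 1.18-fold higher.

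The 7 genes shared 1 order of arrays, a feature singled out after their values were seen. In all 7, CML 2 was above CML 3 and CML 3 above CML 1, and AML 3 was above AML 2 and AML 2 above AML 1. This double order held in 5.46% of all genes. In Alas1 the AML arrays ran the opposite way, as they did in 16.8% of all genes. The gap from AML 1 to AML 3 ran from 1.35 for Uros to 3.67 for Alad on the log2 scale, and that from CML 1 to CML 2 from 1.82 for Tfrc to 3.92 for Fech. Set against the CML mean, AML 1 was lower by value in all 7 genes, with differences from -4.11 to -1.83, whereas AML 3 differed by -1.50 to 0.51. AML 3 lay above CML 1 in 6 of the 7.

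Erythroid genes followed the same order of arrays. Of 25 listed, 17 were measured, and the double order held in 17 of 17. None passed in limma, 2 had an unadjusted p under 0.05, 14 were lower in AML by value, and the median change was -2.12. The mean log2 level of the list was 7.07 on CML 1, 8.998 on CML 2 and 8.29 on CML 3, against 4.69 on AML 1, 6.71 on AML 2 and 8.40 on AML 3. On AML 1, 4 of the 17 (Hbb-bh1, Epb42, Kel and Trim10) stood at or below the array median, on AML 2 and AML 3 none did, and on each CML array Hbb-bh1, an embryonic globin, was the single one. No intensity was 0. Adult globin genes were not analysed here. The lowest unadjusted p belonged to Trim10 and Epb42, at log2 changes of -2.92 and -2.62 (limma adjusted p = 0.199 and 0.210). The red cell factors Gata1, Klf1 and Epor stood at -1.31, -1.08 and -1.35, and the red cell anion exchanger Slc4a1 at -2.63 (limma adjusted p = 0.329, 0.412, 0.292 and 0.276). The other 3 genes had higher values in AML, Hbb-bh1 by 1.81, the carbonic anhydrase gene Car1 by 1.04 and the factor Nfe2 by 0.07 on the log2 scale (limma adjusted p = 0.329, 0.573 and 0.931). Car1 stood at 9.67 on AML 2 and 11.13 on AML 3, both above all CML arrays. A fit with the mean erythroid level as a covariate was added after the data were seen. That level follows the same array order as the 7 genes, so the fit cannot decide what part erythroid cells have. The log2 changes were -0.90 for Cpox, -1.36 for Ppox, -0.43 for Tfrc, -0.49 for Uros and -0.46 for Urod. Alad and Fech turned to 0.45 and 0.06. None of the 7 passed (limma adjusted p from 0.143 to 0.969), and Alas1 stood at 2.10 without passing (limma adjusted p = 0.0831). In these bulk samples fewer red cell precursors and less RNA per cell cannot be told apart. The part of erythroid cells in the values of the 7 genes was not tested.

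Genes of primary granules and myeloid progenitors moved with Alas1 instead. Of 8 measured, 6 rose, and all 8 had higher values in AML. The median change was 3.15. Their mean log2 level was 6.38 to 7.15 in CML and 8.9998 to 10.19 in AML, lowest on AML 3 among the AML arrays as for Alas1, and none was at or below an array median. Elane, neutrophil elastase, rose by 3.85 on the log2 scale, Fcnb by 3.65 and Prtn3 by 3.14 (limma adjusted p = 0.0151, 0.0203 and 0.0248). Of these 6, Elane, Fcnb, Mpo and Prtn3 passed in 3 of 6 fits with 1 array left out, Ms4a3 in 2 and Ctsg in 1. Under 3 other scalings (quantile, median centring and cyclic loess) Elane passed in 3, Fcnb, Mpo and Prtn3 in 2, and Ctsg and Ms4a3 in 1. All 12 pan-haematopoietic genes had higher values in AML, and Ptpn6 and Vav1 passed, in 3 and 1 of those 6 fits and each under 1 of the 3 other scalings. Ptprc, the leukocyte marker CD45, stood at 2.36 (limma adjusted p = 0.176). Of 7 monocyte and macrophage genes, Ccr2 and Cd68 rose (each in 1 of the 6 fits and under 1 of the 3 scalings), and the mean level of the list was 5.48 to 6.12 in CML and 6.76 to 8.03 in AML. The part of these cells in the rise of Alas1 was not tested.

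**Figure D2:**
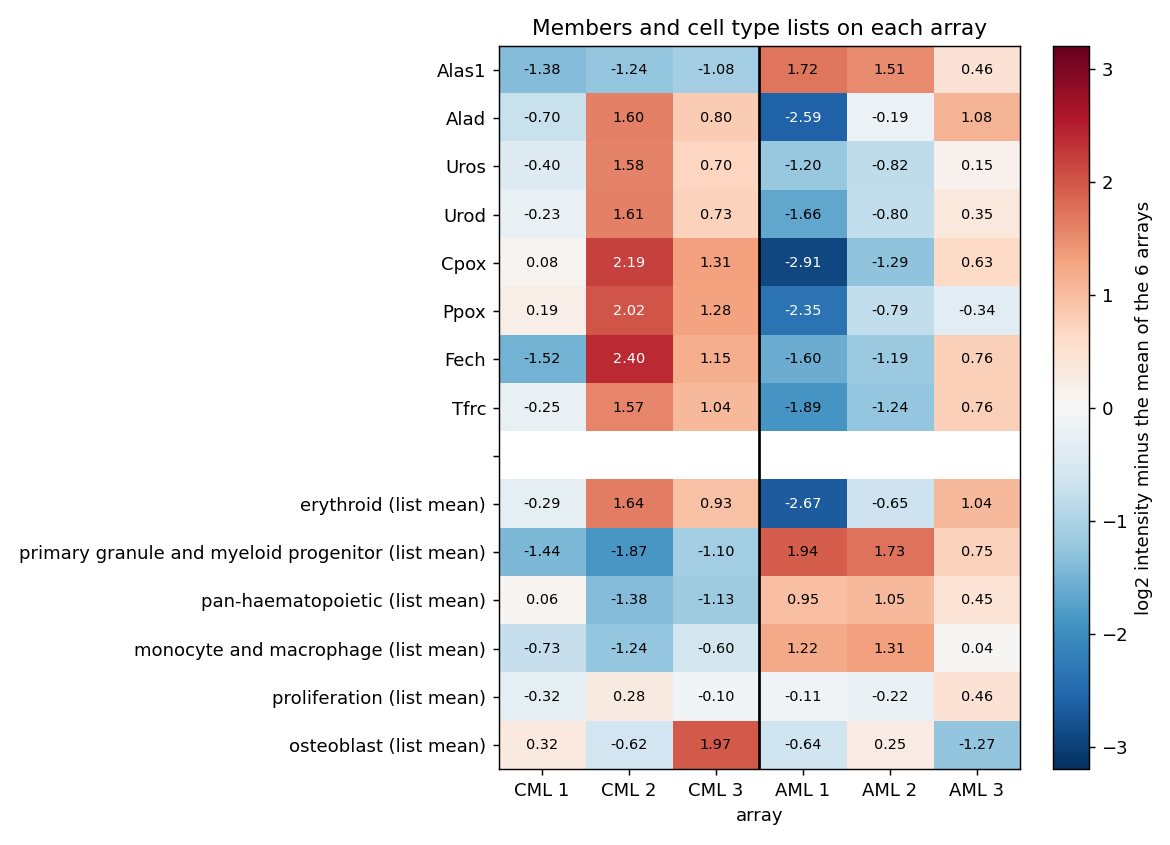
Log2 intensity minus the mean of the 6 arrays (colour and printed value) for each of the 8 genes and for the mean of 6 marker lists (rows) on each array (columns). The 7 genes after Alas1 share the sign pattern of the erythroid row on CML 2, CML 3, AML 1 and AML 2, but not Cpox and Ppox on CML 1 (0.08 and 0.19 against -0.29) or Ppox on AML 3 (-0.34 against 1.04), while the CML values of Alas1 lie between -1.38 and -1.08 and its AML values between 0.46 and 1.72, like the primary granule row.

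Markers of the labelled cell type gave signal on all arrays. The mean log2 level of 10 measured osteoblast genes was 6.61 to 9.20 in CML and 5.96 to 7.49 in AML, all 10 were lower in AML by value and none passed in limma, with 0 at an unadjusted p under 0.05. Dmp1 and Phex stood at or below the array median on CML 2, Dmp1 on AML 1, and Bglap and Phex on AML 3. Col1a1 stood at 10.22, 8.71 and 11.95 in CML and 8.63, 9.87 and 7.26 in AML (limma adjusted p = 0.316), and Sp7 and Bglap at log2 changes of -1.39 and -1.17. The osteoblast list was highest on CML 3, and the 7 heme genes on CML 2. The median change of 11 proliferation genes was 0.13 (-0.07 after quantile normalization, 0.28 after median centring and -0.23 after cyclic loess), none passed in limma, 1 had an unadjusted p under 0.05, and Cdk1 and Mki67 stood at 0.64 and -0.56. The median changes of the megakaryocyte, lymphoid and endothelial lists were 1.49, -0.34 and -0.25, with none of their 4, 9 and 6 measured genes past the threshold in limma and 0, 1 and 1 at an unadjusted p under 0.05. Under the other scalings the endothelial median ran from -0.10 to -0.04, and the lymphoid median was -0.20 after median centring.

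Genes that carry heme precursors and iron through the mitochondrial membranes, or build iron-sulfur clusters there, did not pass in limma, and 2 had an unadjusted p under 0.05. Of 12 measured, 7 were lower and 5 higher in AML by value. The median change was -0.31 on the log2 scale (-0.63 to -0.16 under the 3 other scalings), and the double order of arrays held in 8. Slc25a37, mitoferrin 1, which brings iron into the mitochondria of red cell precursors, stood at 9.35, 11.21 and 10.60 in CML and 7.97, 8.54 and 9.67 in AML, a log2 change of -1.66 (limma adjusted p = 0.187). CML 1 lay below AML 3, so its groups overlapped. Slc25a38, the glycine carrier for the first step, stood at -0.99, and the transporter Abcb10 at -1.24 (limma adjusted p = 0.331 and 0.365). Tmem14c, which moves a late porphyrin precursor inward, stood at 0.17, and Fdx1, a ferredoxin, was 0.61 higher by value (limma adjusted p = 0.868 and 0.186).

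In iron uptake, storage and export, 1 of 14 genes passed. Pcbp2, an RNA-binding protein that also hands iron to ferritin, rose by 0.88 ± 0.14 (SE; limma adjusted p = 0.0415). Its log2 intensity was 9.09 to 9.37 in CML and 9.999 to 10.17 in AML, without overlap. The call ended in all 6 fits with 1 array left out, at log2 changes of 0.81 to 0.95, and held under 1 of 3 other scalings. The median of the list was -0.12, and it ran from -0.03 to 0.03 under the other scalings. Tfr2, the second transferrin receptor, stood at -0.55, Fth1, the ferritin heavy chain, at -0.39, and Slc40a1, the iron exporter ferroportin, at 0.65 (limma adjusted p = 0.584, 0.389 and 0.325). Trf and Ftl1 were not analysed here.

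Genes of iron regulatory proteins and of Alas1 control did not pass in limma. Of 10 measured, 3 had an unadjusted p under 0.05, as had 21.5% of all genes. The median change of the 10 was 0.05, and it ran from -0.03 to 0.20 under the other scalings. Ireb2, iron regulatory protein 2, which protects Tfrc mRNA when iron is low, stood at 5.81, 6.17 and 5.33 in CML and 6.61, 6.57 and 6.76 in AML. Its groups did not overlap, as 13.3% of all genes were without overlap and higher in AML, and the log2 change was 0.88 ± 0.23 (SE; limma adjusted p = 0.113). Nfe2l2, the antioxidant regulator NRF2, stood at 0.80 (limma adjusted p = 0.103). Aco1, the other iron regulatory protein, stood at 0.16. Nrf1, nuclear respiratory factor 1, stood at 0.06 (limma adjusted p = 0.889). Ppargc1a, a coactivator known to raise Alas1 in liver, was dim on all arrays, with log2 intensities from 2.67 to 3.12, and differed by 0.04 (limma adjusted p = 0.897).

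None of 14 genes of heme breakdown and heme transport passed in limma, 0 had an unadjusted p under 0.05, and their median change was -0.06 (0.09 after median centring). Hmox1, the inducible heme oxygenase, stood at 6.36, 9.03 and 7.44 in CML and 7.31, 7.05 and 6.48 in AML, and its groups overlapped (log2 change -0.66; limma adjusted p = 0.530). Abcg2, a porphyrin exporter, was lower in AML by 2.5 ± 1.24 (SE) on the log2 scale by value without passing (limma adjusted p = 0.283). The exporter Flvcr1 stood at 0.24 and Hmox2 at 0.40 (limma adjusted p = 0.526 and 0.299). Of 16 genes listed for heme proteins outside red cells, subunits of such proteins included, 2 rose in AML and 5 had an unadjusted p under 0.05 in limma. Mpo, the peroxidase of primary granules and a member of that list too, rose by 2.65. Cyba, a subunit of the phagocyte oxidase, rose by 2.32 (limma adjusted p = 0.0221 and 0.0424). Cybb, another subunit of that oxidase, was 2.82 higher by value without passing (limma adjusted p = 0.0679). With 1 array left out, Mpo passed in 3 of 6 fits and Cyba in 0, and Cyba passed under 1 of the 3 other scalings. The median of these 16 was 0.15 (0.17 to 0.30 under those scalings), with 8 higher and 8 lower by value.

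**Figure D3:**
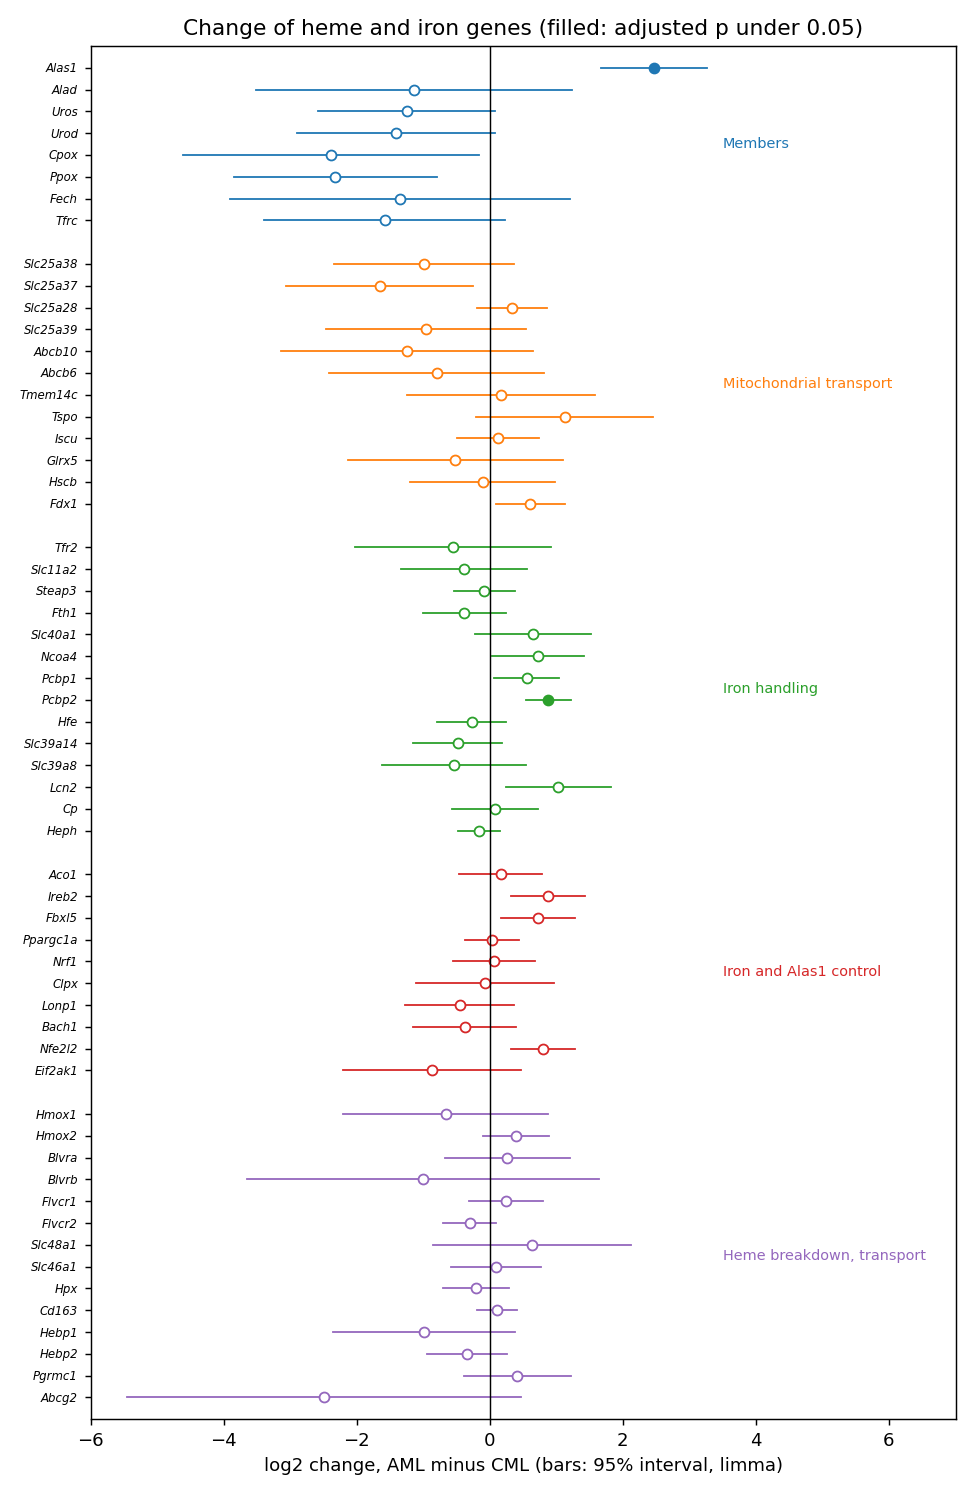
Log2 change, AML minus CML (x axis), with its 95% interval in limma for the 8 genes and for 50 genes of heme and iron transport, iron control and heme breakdown (rows, coloured by list); filled points passed an adjusted p of 0.05. Alas1 at 2.46 and Pcbp2 at 0.88 are the filled points, and Alad to Tfrc lie left of 0 with wide intervals.

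The genes most like each member were found by the root mean square difference over the 6 arrays after centring, among 17328 genes. For Alas1 these were Pla2g15, Laptm4b and Fgd4, at differences of 0.10, 0.15 and 0.17. For Alad they were Nxpe2, Gfi1b and Slc22a23 (0.27 to 0.33), and for Uros Mkrn1, Cdc42bpa and Atp6v0a1 (0.065 to 0.099). For Urod they were Atp6v0a1, Trim58 and Slc25a37 (0.16 to 0.18), and for Cpox Slc43a1, Ank1 and Tspan33 (0.15 to 0.23). For Ppox they were Xpo7, Btnl10 and Apol8 (0.31 to 0.32), for Fech Marchf3, Plek2 and Dyrk3 (0.20 to 0.31), and for Tfrc Ackr1, Arhgef12 and Spire1 (0.12 to 0.19). Among the members, Uros and Urod lay closest to each other at 0.22, then Urod and Tfrc at 0.29, while Alas1 lay 2.09 to 2.86 from each of the others.

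**Figure D4:**
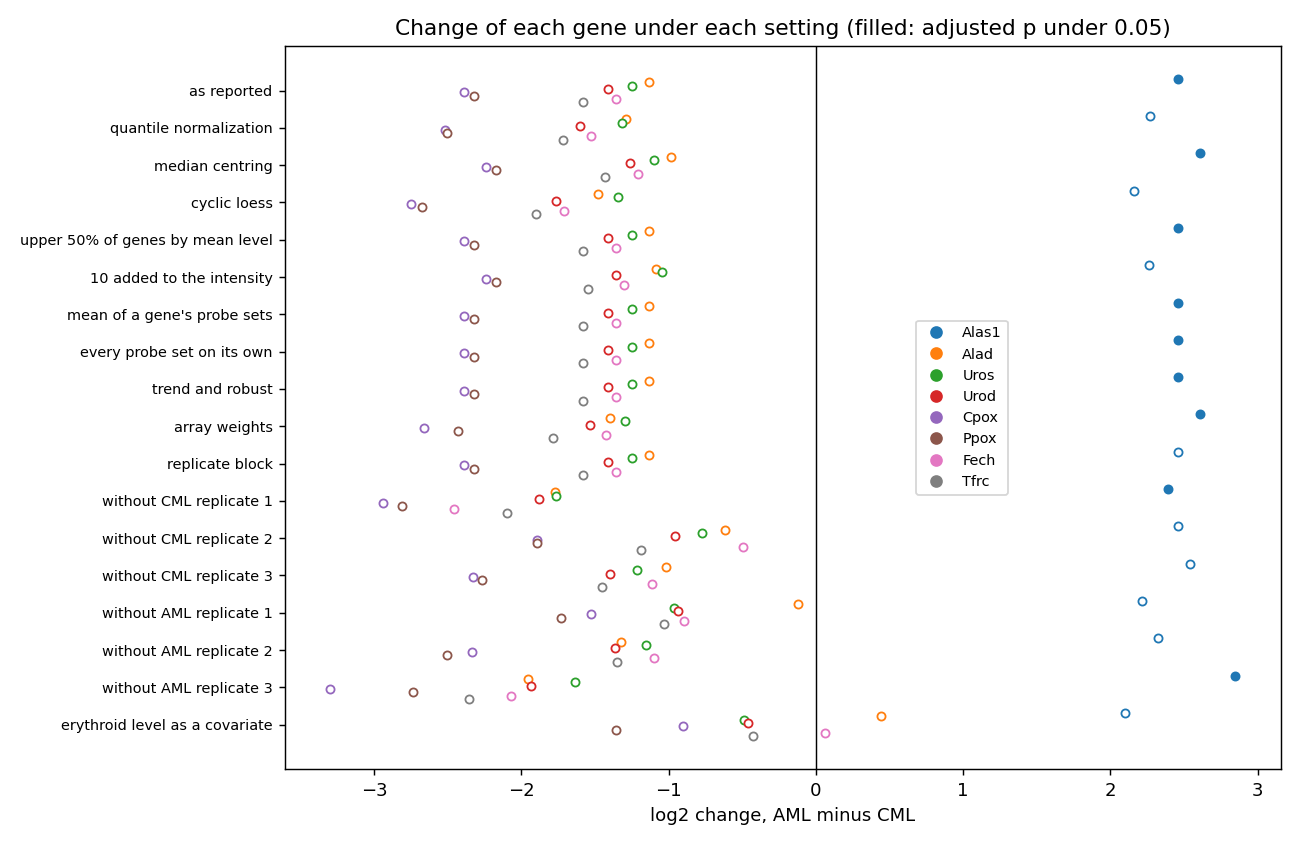
Log2 change, AML minus CML (x axis), of each of the 8 genes (colours) as reported and under 17 other settings (rows); filled points passed an adjusted p of 0.05. Alas1 stays between 2.10 and 2.85 and is filled in 9 of the 18 rows, and the other 7 genes lie left of 0 except Alad at 0.45 and Fech at 0.06 with the erythroid level as a covariate.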

How the data were processed

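Per the labels' protocols, column-purified RNA of sorted cells was amplified and terminally labelled for Affymetrix arrays, 1 per sample. The deposited intensity values run from 2.71 to 8583 and were taken as linear from this range. Per the submitters' processing notes limma and lumi were used; the sources used here do not give how probe sets were background-corrected, summarised or normalized. Per array, the median intensity was 17.2 to 20.4, and the number of arrays limits the precision.

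Of 39721 probe sets, 23521 had 1 gene symbol, 1814 several and 14386 none. A gene with several was read from its brightest probe set by mean, giving 22180 genes. Log2 intensities were fitted in limma 3.58.1 (R 4.3.3; lmFit, eBayes) as AML minus CML, two-sided, with Benjamini-Hochberg adjustment over all genes and a threshold of 0.05. The planned comparison of Alas2 with Alas1 was not run. Members and lists were chosen with earlier results of these data known. Named genes were the members, up to 4 called genes per list or else the 2 with the lowest unadjusted p, fixed pathway genes, and the 3 genes most like each member. Nrf1 was named for its motif, outside this rule. The fit was tested on simulated data. Promoters came from RefSeq.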

Additional observations from a re-analysis of the deposited data

How the results depend on the processing

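The 8 genes kept their direction under every planned setting, and Alad and Fech turned to 0.45 and 0.064 with the erythroid level as a covariate, which was added after the data were seen. The median change of the 8 genes ran from -2.01 to -0.87 with 1 array left out. Without CML 2 it was -0.87 and without AML 1 it was -0.95, against -1.38 as reported. The count of the 8 genes that passed in limma was 0 after quantile normalization, after cyclic loess, with 10 added to the intensity, with a replicate block and with the erythroid covariate (5, 6, 2, 6 and 3 at an unadjusted p under 0.05), and 0 to 1 with 1 array left out. Over all genes 423 passed. The count was 93 after quantile normalization, 896 after median centring, 64 after cyclic loess, 253 with 10 added to the intensity, 639 with array weights and 65 with the erythroid covariate. It was 0 with a replicate block (by limma's unadjusted p under 0.05, 3711 genes), and 0 to 438 with 1 array left out. It was 0 without CML 3, AML 1 or AML 2 (by limma's unadjusted p under 0.05, 3533, 3048 and 3750) and 279 without AML 3. The causes were not tested. Median centring moved the median of all genes by 0.15, and 7 of the 8 genes stayed lower in AML by value under each scaling. Deviations of same-numbered arrays from their group means had no common sign (correlations of 0.24, -0.30 and -0.25). With 3 arrays per group this cannot settle whether the numbers pair the samples, which stays unknown. With the block Alas1 did not pass (limma adjusted p = 0.114).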
